A study of Mus musculus with 7 samples.

Results

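A set of 10 genes that the transcription factor p53 is known to induce were followed in brain vascular fragments after PDGF-CC. They were Cdkn1a, Trp53inp1, Sesn1, Sesn2, Ccng1, Mdm2, Btg2, Zmat3, Phlda3 and Bbc3. Each was read from its brightest probe set among those annotated with that symbol alone, which gave 10 genes of 22180 with such a probe set, and 10 of 10 lay above the filter on dim probe sets. RNA came from vascular fragments of the brain of female C57BL/6N mice aged 12 weeks, which the sample labels call adult C57BL/6. The mice had received PDGF-CC (4 arrays) or phosphate-buffered saline, PBS (3 arrays), by intracerebroventricular (ICV) injection 4 h before they were killed. Both groups thus share the injection itself, uninjected mice were not analysed here, and the labels do not say whether each array is a separate mouse, so errors measure the spread between these samples. The genes were chosen with the values of both groups in view. Their differences are therefore given as a description, with the standard error (SE) and without a p-value.

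p53 is a transcription factor that is kept scarce by the ubiquitin ligase MDM2 and that accumulates after DNA damage and other stresses. It then switches on genes that halt the cell cycle, restrain growth signalling, repair DNA or start apoptosis, together with Mdm2 itself, which closes a feedback loop. Several of these genes answer to other regulators as well: Cdkn1a to the glucocorticoid receptor, and Sesn1 and Trp53inp1 to FOXO factors. In small brain vessels, whose endothelial cells rarely divide, the same genes are read mostly as stress and quiescence genes.

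The promoters are shown here because they tell which of the 10 genes carry p53 sequence near a start site. RefSeq promoter windows (GRCm38.p6, 250 bases before to 50 after a start) held 8 of the 10 genes in 12 windows, and Trp53inp1 and Zmat3 had none. The p53 half-site, a palindrome so that 1 strand covers both, was in 4 of these 12 windows, against 8.36% of all 32851 windows. A p53 full site, which is 2 adjoining half-sites with intact cores and at most 1 mismatch, was in 18 of all windows (0.0548%), and 1 of those 18 belonged to Cdkn1a. It lay 51 to 32 bases before the upstream of the 2 Cdkn1a starts, whereas the Sesn1 half-site belonged to the downstream of 2 starts. The full site (chr17:29090928-29090947) is distal to the other Cdkn1a start, whose window (chr17:29093519-29093818) held no p53 site. A half-site inside the full site overlaps it and is counted under both. The 250 bases before the start are printed for the 4 windows with a half-site, 5′ to 3′ on the gene's strand, with half-sites and the full site in capitals. They are chr17:29090729-29090978 (plus strand) for Cdkn1a, chr10:41887189-41887438 (plus) for Sesn1, chr11:40755287-40755536 (minus) for Ccng1 and chr10:117710759-117711008 (minus) for Mdm2.
Cdkn1a: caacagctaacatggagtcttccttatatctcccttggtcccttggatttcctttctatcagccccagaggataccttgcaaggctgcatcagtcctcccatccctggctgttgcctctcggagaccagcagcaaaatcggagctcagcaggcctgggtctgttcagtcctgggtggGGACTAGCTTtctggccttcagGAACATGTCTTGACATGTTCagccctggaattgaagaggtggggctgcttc
Sesn1: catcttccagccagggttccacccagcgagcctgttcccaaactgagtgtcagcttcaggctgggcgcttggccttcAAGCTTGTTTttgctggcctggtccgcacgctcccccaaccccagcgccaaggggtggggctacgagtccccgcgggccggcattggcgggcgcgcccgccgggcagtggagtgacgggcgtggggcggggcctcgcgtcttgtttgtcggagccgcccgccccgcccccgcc
Ccng1: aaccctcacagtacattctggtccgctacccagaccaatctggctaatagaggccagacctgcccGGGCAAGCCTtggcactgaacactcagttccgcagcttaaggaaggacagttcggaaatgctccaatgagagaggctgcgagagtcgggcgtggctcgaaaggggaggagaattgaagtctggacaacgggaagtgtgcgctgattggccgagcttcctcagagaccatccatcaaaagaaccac
Mdm2: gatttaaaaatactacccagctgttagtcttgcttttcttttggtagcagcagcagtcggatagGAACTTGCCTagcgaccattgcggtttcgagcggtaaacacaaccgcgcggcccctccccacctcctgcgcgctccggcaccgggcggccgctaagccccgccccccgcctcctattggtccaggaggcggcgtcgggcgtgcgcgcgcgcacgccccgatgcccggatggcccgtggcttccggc

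Among these 4 genes with a p53 half-site, Cdkn1a and Sesn1 were at lower levels after PDGF-CC, whereas Ccng1 and Mdm2 were near their PBS levels. The forkhead core GTAAACA, searched on both strands, was in 3 of the 12 windows (Sesn1, Mdm2 and Bbc3) against 3.65% of all. The core ACANNNTGT of glucocorticoid receptor sites was in 0 of the 12 windows against 6.85% of all, and the E-box CACGTG was in 1, a Bbc3 window, against 7.15%. A match is a description of these letters and not a bound site. Many p53 targets are regulated through distal and intronic elements, and a window covers only the bases near its own start.

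The 10 genes did not move as 1 block. Cdkn1a, Trp53inp1 and Sesn1 were lower in all 4 PDGF-CC arrays than in any PBS array, with means at 47.7%, 30.04% and 65.0% of the PBS level. The remaining 7, among them Mdm2, Ccng1, Zmat3, Phlda3 and Bbc3, differed by -0.10 to 0.23 on the log2 scale, and their groups overlapped. Among all 17734 probe sets tested, 2.5% were lower and 1.8% higher without overlap of the groups (763, or 4.3%, in both directions), and since the genes were chosen on this contrast, nothing is read from the 3 of 10. The median difference of the 10 genes was -0.05, beside -0.003 for all 15582 single-symbol genes tested. With limma, 0 probe sets passed an adjusted p of 0.05 (0.0% lower and 0.0% higher), and 1071 (6.04%) had an unadjusted p under 0.05.

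**Figure D1:**
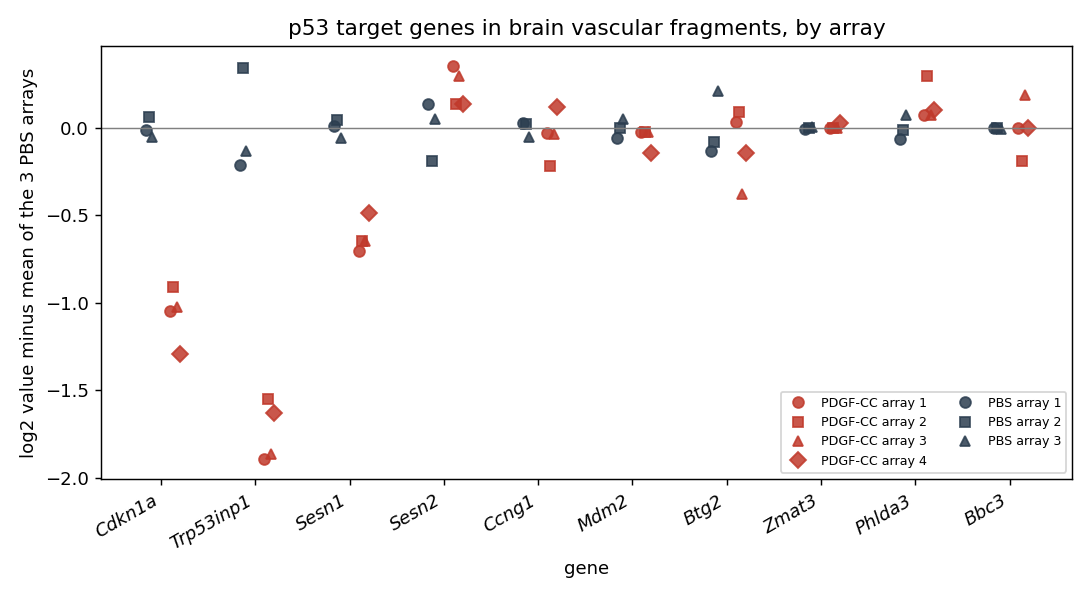
Each point is the log2 value of 1 gene on 1 array minus the mean of the 3 PBS arrays for that gene (red, 4 PDGF-CC arrays; dark blue, 3 PBS arrays; the symbol shape gives the array number). The red points of Cdkn1a, Trp53inp1 and Sesn1 lie between -1.90 and -0.49, below every PBS point, and those of the other genes lie between -0.38 and 0.36.

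The cell cycle brake Cdkn1a encodes p21, an inhibitor of cyclin-dependent kinases. On the log2 scale it was at 9.66, 9.80, 9.68 and 9.42 in PDGF-CC arrays 1 to 4, and at 10.69, 10.77 and 10.65 in PBS arrays 1 to 3. The PDGF-CC arrays were all low, with array 4 the lowest, and the groups stood 0.86 apart at their closest, more than the range within either group (0.38 for PDGF-CC and 0.11 for PBS). The means were 9.64 ± 0.16 (SD, n = 4) and 10.70 ± 0.06 (SD, n = 3). The difference was -1.07 ± 0.093 (SE), the rank 15 by size among the 17734 probe sets, while the gap between the groups ranked 3. Cdkn1a was chosen on this contrast, so the ranks are only a description.

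Trp53inp1, a p53-inducible nuclear protein that promotes autophagy and cell death, differed most of the 10. It was at 6.70, 7.04, 6.73 and 6.97 in PDGF-CC arrays 1 to 4, and at 8.38, 8.94 and 8.46 in PBS arrays 1 to 3. PBS array 2 stood highest and widened the PBS range to 0.56, yet the groups were 1.34 apart at their closest. The means were 6.86 ± 0.17 (SD, n = 4) and 8.59 ± 0.30 (SD, n = 3). The difference of -1.73 ± 0.15 (SE) ranked 3 by size and the gap ranked 2 among all probe sets. Trp53inp1 too was chosen on this contrast, so these ranks are only a description. Its relative Trp53inp2, which also acts in autophagy, was at 7.05 in PDGF-CC and 7.06 in PBS, a difference of -0.006 ± 0.14 (adjusted p = 0.992 by limma). This value ran from -0.16 without PBS array 2 to 0.15 without PBS array 3.

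The sestrins restrain growth signalling through mTORC1, and the family's members differed from each other. Sesn1 was at 8.44, 8.50, 8.50 and 8.66 in PDGF-CC arrays 1 to 4, and at 9.15, 9.19 and 9.09 in PBS arrays 1 to 3. The groups were 0.43 apart with ranges of 0.22 and 0.10, and the difference was -0.62 ± 0.066 (SE). Sesn2, the sestrin best known from ATF4 and p53 stress responses, went the other way in its mean. It was at 5.20, 4.98, 5.14 and 4.98 in PDGF-CC arrays 1 to 4, and at 4.98, 4.66 and 4.89 in PBS arrays 1 to 3. Its difference was 0.23 ± 0.098 (SE), with PDGF-CC arrays 2 and 4 exactly equal to PBS array 1, and it was 0.14 without PBS array 2. The signal of Sesn2 was low, its mean only 0.83 above the filter. Sesn3, which FOXO factors induce, was at -0.15 ± 0.17 (SE, adjusted p = 0.834 by limma), and at -0.002 without PDGF-CC array 2.

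Ccng1 and Btg2, which also act on cell division, had groups that overlapped. Ccng1 encodes cyclin G1, a steadily p53-responsive gene that recruits a phosphatase to MDM2. It was at 9.55, 9.37, 9.55 and 9.70 in PDGF-CC arrays 1 to 4, and at 9.61, 9.60 and 9.53 in PBS arrays 1 to 3, so that the highest and the lowest array were both PDGF-CC. Its difference was -0.04 ± 0.083 (SE), and 0.02 without PDGF-CC array 2. The antiproliferative early-response gene Btg2 was at 9.87, 9.93, 9.46 and 9.70 in PDGF-CC and at 9.71, 9.76 and 10.05 in PBS. Its arrays were widely spread in both groups (ranges 0.47 and 0.34), and the difference was -0.10 ± 0.14 (SE), or 0.006 without PBS array 3.

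The feedback gene Mdm2 was at 7.73, 7.73, 7.73 and 7.61 in PDGF-CC arrays 1 to 4, and at 7.70, 7.76 and 7.81 in PBS arrays 1 to 3. The groups overlapped, and the difference was -0.05 ± 0.056 (SE). Without PBS array 1 every remaining PBS array was above the PDGF-CC arrays, by a difference of -0.08. Zmat3, which encodes an RNA-binding zinc finger protein of the p53 response, had the smallest spread, between 6.11 and 6.15 in all 7 arrays. However, 4 of these arrays held exactly the same value. The difference of Zmat3 was 0.006 ± 0.043 (SE). Phlda3, a p53-induced repressor of the kinase AKT, was at 6.56, 6.78, 6.56 and 6.59 in PDGF-CC and at 6.42, 6.47 and 6.56 in PBS. Its difference of 0.14 ± 0.074 (SE) was 0.08 without PDGF-CC array 2, which stood above the others. Without PBS array 3 the groups of Phlda3 no longer overlapped, and the same held for Sesn2 without PBS array 1.

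The apoptosis gene Bbc3 encodes PUMA, a BH3-only protein that p53 and FOXO3 induce. It lay between 4.23 and 4.61 in PDGF-CC and between 4.41 and 4.42 in PBS, a mean of only 0.27 above the filter of 4.145, with a difference of 0.001 ± 0.088 (SE). At such a dim signal a difference in the RNA may not be visible. Exactly equal values in 3 or more of the 7 arrays occurred for Sesn2, Mdm2, Zmat3, Phlda3 and Bbc3, as they did for 37.4% of all tested probe sets, and for none of Cdkn1a, Trp53inp1, Sesn1, Ccng1 and Btg2. Equal values lower the spread of a probe set, and their origin was not tested.

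**Figure D2:**
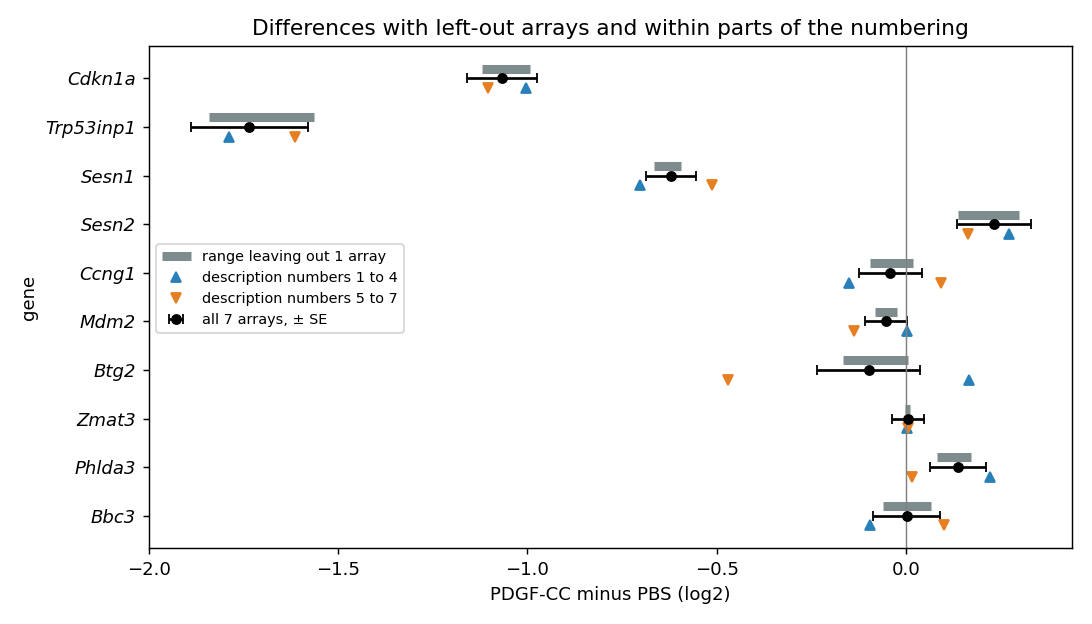
Black points give the PDGF-CC minus PBS difference (log2) of each gene with its SE over 7 arrays, grey bars its range when 1 array is left out, and triangles the difference within arrays whose description numbers are 1 to 4 (blue) or 5 to 7 (orange). Cdkn1a, Trp53inp1 and Sesn1 stay at or below -0.51 throughout, whereas Btg2 runs from -0.47 to 0.17 between the parts.

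The differences of the 3 lower genes were also taken with each array left out. Since their groups did not overlap, no choice of arrays could change the sign, and only the size is described. Cdkn1a ran from -1.12 to -0.99, Trp53inp1 from -1.84 (without PBS array 1) to -1.56 (without PBS array 2), and Sesn1 from -0.67 to -0.59. The sample descriptions number the arrays 1 to 7 over both groups, and the differences were also taken within numbers 1 to 4 (2 arrays against 2) and within 5 to 7 (2 against 1). Cdkn1a was at -1.003 and -1.104, Trp53inp1 at -1.79 and -1.61, and Sesn1 at -0.70 and -0.51 in the first and second part. Btg2 (0.17 and -0.47), Ccng1 (-0.15 and 0.09), Bbc3 (-0.10 and 0.10) and Mdm2 (0.004 and -0.14) had opposite signs in these parts. In both parts PDGF-CC numbers precede PBS numbers, so that treatment and position within a part cannot be told apart. PBS array 2 was the highest for each of Cdkn1a, Trp53inp1 and Sesn1. The lowest was PDGF-CC array 4 for Cdkn1a and PDGF-CC array 1 for Trp53inp1 and Sesn1.

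Other genes that p53 induces were counted as a wider list of 45, of which 39 were tested. None passed the adjusted threshold by limma in either direction (lowest adjusted p = 0.722), and 5 lower and 1 higher had an unadjusted p under 0.05, where all probe sets gave 3.41% and 2.63%. The 5 were Ddit4, Fas, Pmaip1, Rev3l (-0.19 ± 0.071) and Sp100 (-0.18 ± 0.071), and the higher one was Zfp385a (0.18 ± 0.070, SE, adjusted p = 0.769 for these last 3, which were named after their values were seen). Without PBS array 2 only 3 of the list had such a p. The median difference was -0.02, 25 of 39 were negative, and 32 of 39 (82.1%) lay within 0.2 of zero, as did 85.4% of all single-symbol genes. Ddit4, an inhibitor of mTORC1 that glucocorticoids and hypoxia also induce, was the largest at -1.37 ± 0.26 (SE, adjusted p = 0.722). It was at 7.01, 7.87, 6.92 and 7.34 in PDGF-CC and 8.28, 8.67 and 9.01 in PBS, without overlap. The death receptor gene Fas was at 8.75, 9.23, 9.20 and 9.14 in PDGF-CC and 9.77, 9.73 and 9.33 in PBS, a difference of -0.53 ± 0.15 (SE, adjusted p = 0.769). PBS array 3 was close to the PDGF-CC arrays in Fas, whose difference was -0.75 within numbers 1 to 4 and -0.16 within 5 to 7.

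Pmaip1, which encodes the BH3-only protein NOXA, differed by -0.44 ± 0.16 (SE, adjusted p = 0.769), and by -0.25 without PBS array 2. Tnfrsf10b, a receptor for the death ligand TRAIL, differed by -0.38 ± 0.19 (SE, adjusted p = 0.769), and by -0.21 without PBS array 2. Thbs1, a matrix glycoprotein that restrains angiogenesis, was at -0.29 ± 0.40 (SE, adjusted p = 0.858) and ran from -0.68 to 0.007 with 1 array left out. Genes of the p53 response with small differences included Plk2 (-0.005 ± 0.12), Polk (0.02 ± 0.080), Rrm2b (0.05 ± 0.085), Tigar (-0.02 ± 0.044) and Trp53cor1 (0.01 ± 0.098, SE), named here after their values were seen. Bax, Gdf15 and Gadd45a were not analysed here.

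Regulators of p53 had small differences. Of 28 genes in that list, which includes p53 itself, 25 were tested, 0 passed the adjusted threshold by limma, and 0 had an unadjusted p under 0.05. All 25 lay between -0.15 and 0.11, with a median of -0.004. Mdm4, the partner of MDM2 that holds p53 inactive, was at 8.53 in PDGF-CC and 8.41 in PBS, a difference of 0.11 ± 0.11 (SE, adjusted p = 0.809), which ran from 0.01 (PBS array 2 left out) to 0.21 (PBS array 1 left out). The damage kinase genes Atr and Atm were at -0.14 ± 0.11 and -0.11 ± 0.071 (SE, adjusted p = 0.788 and 0.770). Rpl5, a ribosomal protein that binds MDM2, was at -0.15 ± 0.14, and the stress kinase gene Mapk8 at -0.10 ± 0.095 (SE, adjusted p = 0.803 and 0.800). These small values depended on single arrays. Without PBS array 2 Rpl5 was at -0.05 and Mapk8 at -0.02, without PBS array 3 they were at -0.27 and -0.22 and Atm at -0.06, and without PDGF-CC array 2 Atr was at -0.03. These values are transcript levels, and p53 is controlled mostly through its protein, which was not measured. Trp53 itself was not analysed here.

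Relatives of the 10 genes were counted as well, to see whether whole families were lower. Of 23 relatives 20 were tested, 0 passed the adjusted threshold by limma, and 1 was lower and 1 higher at an unadjusted p under 0.05. That share is near the 3.41% lower and 2.63% higher among all probe sets, so the count is not a result about the relatives. It was 1 without PDGF-CC array 2, PBS array 1 or PBS array 2, and 0 without PBS array 3. The 2 genes were Tob1 and Btg1, antiproliferative relatives of Btg2. Tob1 was at 6.93, 7.11, 7.54 and 7.52 in PDGF-CC and 7.73, 7.74 and 7.75 in PBS, a difference of -0.47 ± 0.16 (SE, adjusted p = 0.769). Btg1 was at 8.69, 8.35, 8.17 and 8.17 in PDGF-CC and 8.03, 7.89 and 7.72 in PBS, a difference of 0.47 ± 0.14 (SE, adjusted p = 0.769). The other inhibitors of cyclin-dependent kinases were nearer to zero, with Cdkn1b at 0.09 ± 0.14, Cdkn1c at -0.11 ± 0.14 and Cdkn2b at -0.13 ± 0.087 (SE). Ccng2, the second cyclin G, was at -0.05 ± 0.073 (SE, adjusted p = 0.876), Zmat1 at -0.15 ± 0.084 (adjusted p = 0.769) and the BH3-only gene Bik at 0.17 ± 0.13 (adjusted p = 0.774). Without PBS array 2 Zmat1 was at -0.09 and Bik at 0.01, and without PBS array 1 Bik was at 0.26.

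**Figure D3:**
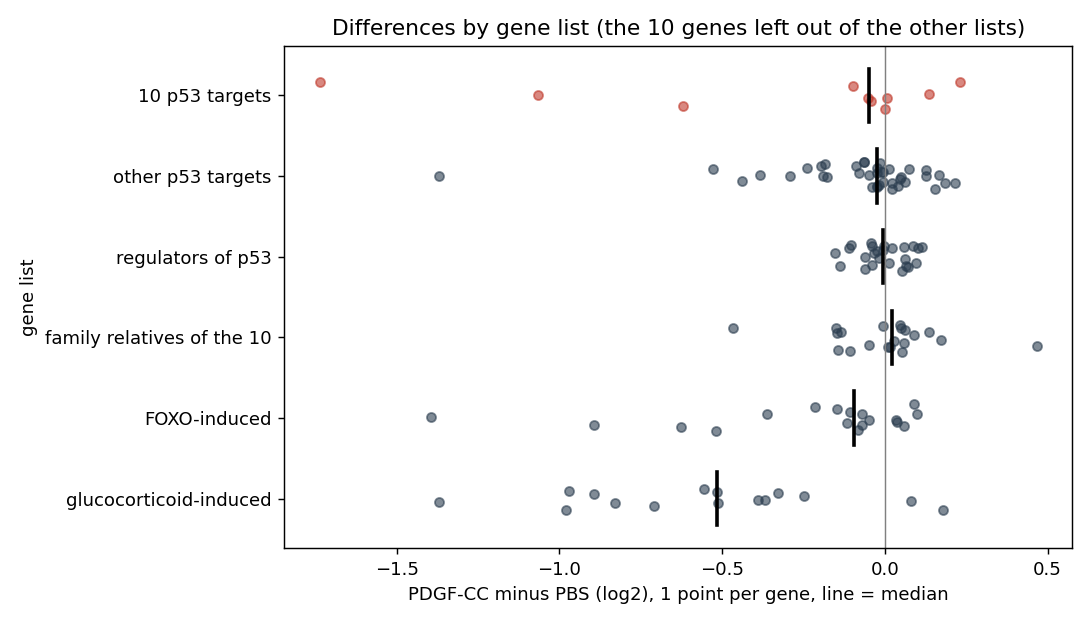
Each point is the PDGF-CC minus PBS difference (log2) of 1 tested gene, placed by list, with small vertical scatter for visibility and a black line at the list's median; the 10 p53 targets (red) are left out of the other lists. The 25 regulators of p53 lie between -0.15 and 0.11, while the glucocorticoid-induced genes have a median of -0.52.

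Since Cdkn1a is also a glucocorticoid target and Sesn1 and Trp53inp1 are also FOXO targets, lists of genes induced by either factor were set beside the 10 genes, leaving the 10 out. Of all 15582 single-symbol genes tested, 7987 were negative. Of the 15 other glucocorticoid-induced genes 13 were negative with a median of -0.52. Of the 18 other FOXO-induced genes 13 were negative with a median of -0.10, beside -0.02 for the other p53 targets. No gene of these lists passed the adjusted threshold by limma (lowest adjusted p = 0.722 and 0.623), and 10 and 5 of them were lower at an unadjusted p under 0.05, beside 3.41% of all probe sets (3 of the FOXO list without PBS array 2). No gene of either list was higher at that level. With 1 array left out, 7 to 11 of the other glucocorticoid-induced genes had an unadjusted p under 0.05. Their median then ran from -0.65 to -0.37. The largest differences were those of Ddit4, the clock gene Per1 (-0.98 ± 0.27) and the receptor co-chaperone gene Fkbp5 (-0.97 ± 0.32) among glucocorticoid-induced genes. Among FOXO-induced genes they were those of the autophagy regulator Depp1 (-1.39 ± 0.24), the pyruvate dehydrogenase kinase gene Pdk4 (-0.89 ± 0.18) and Klf15 (-0.63 ± 0.23, SE, and -0.35 without PBS array 2). Adjusted p for these 6 genes was between 0.623 and 0.769. Ddit4 belongs to the glucocorticoid and p53 lists, and Pdk4 to the glucocorticoid and FOXO lists, so that the lists are not independent. They were also chosen with earlier results of these data known, so their counts are only a description. No difference between lists was tested, nor any part of either factor in the differences of the 10 genes.

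The genes whose profiles over the 7 arrays came closest to Cdkn1a and Trp53inp1 were sought among 15572 other genes. Likeness was the root-mean-square distance between log2 values after each gene's mean was removed, so that 0 is an identical profile and the distance of a flat profile would be 0.54 for Cdkn1a and 0.88 for Trp53inp1. Closest to Cdkn1a were Zdhhc23 (0.22), Pdk4 (0.23), the cell cycle regulator Rgcc (0.25), the serotonin receptor gene Htr2a (0.25) and the EGF receptor inhibitor Errfi1 (0.25). Closest to Trp53inp1 were the transcript 2810029C07Rik (0.25), Angptl4 (0.25), which encodes an inhibitor of lipoprotein lipase, Depp1 (0.31), Ddit4 (0.35) and Rasd1 (0.41), a small G protein gene that dexamethasone induces. Each of these 10 genes was lower without overlap of the groups, with differences from -2.03 ± 0.16 (SE) for 2810029C07Rik to -0.66 ± 0.081 for Rgcc. This likeness uses the same contrast as the choice of the genes and is a description. Of the 10 closest genes, 1 (Ddit4) was on the wider list of p53 targets, 3 (Ddit4, Pdk4 and Errfi1) were on the glucocorticoid list, and 2 (Pdk4 and Depp1) were on the FOXO list. These lists held 39, 15 and 18 other tested genes and were chosen with earlier results of these data known. Nothing is therefore read from these counts. In PDGF-CC the mean of Zdhhc23 (3.85) was below the filter.

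**Figure D4:**
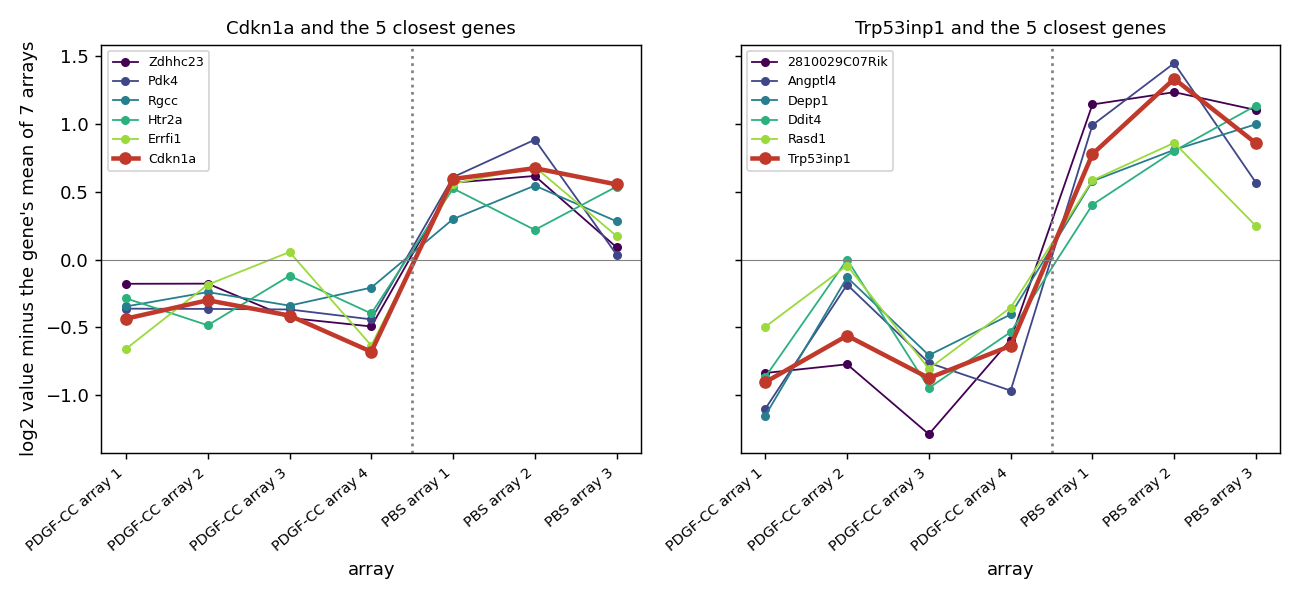
Lines join the log2 values of 1 gene over the 7 arrays after its mean was removed, for Cdkn1a (left, red) and Trp53inp1 (right, red) with the 5 genes of smallest root-mean-square distance; the dotted line parts the 4 PDGF-CC from the 3 PBS arrays. Trp53inp1 and Angptl4 share their peak in PBS array 2, and Ddit4 and Depp1 peak in PBS array 3.

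Arrays correlated with each other at 0.982 to 0.992 over the tested probe sets. Endothelial markers (12 of 12 tested) were present above the filter, with a mean log2 level of 10.72 to 10.82 in PDGF-CC and 10.73 to 10.91 in PBS, and a median difference of -0.04. Pericyte and smooth muscle markers were also present, at list means of 8.72 to 9.20 and 8.91 to 9.28. Pericyte markers were negative in 8 of 9 (median -0.08), and smooth muscle markers in 1 of 6 (median 0.14). By limma, 2 pericyte markers were lower and 1 smooth muscle marker higher at an unadjusted p under 0.05 (lowest adjusted p = 0.769). Among all probe sets, 3.41% were lower and 2.63% higher at that level. Markers of the choroid plexus, the epithelium that makes cerebrospinal fluid, were negative in 7 of 8. Each of the 7 had an unadjusted p under 0.05 by limma, beside 3.41% of all probe sets lower at that level (lowest adjusted p = 0.769). Their list means were 6.32 to 7.16 in PDGF-CC and 7.23 to 7.58 in PBS. These did not overlap, like the values of Cdkn1a, Trp53inp1 and Sesn1, but PDGF-CC array 4 (7.16) was close to PBS array 1 (7.23). Microglial markers were positive in 7 of 8, with list means of 9.88 to 9.91 in PDGF-CC and 9.33 to 9.81 in PBS, and PBS array 2 was lowest. Neutrophil and monocyte markers were negative in 7 of 9, with list means of 6.72 to 7.52 in PDGF-CC and 7.06 to 8.02 in PBS. No marker of these lists was below the filter. The part of these cell types in the differences of the p53 targets was not tested. In such bulk samples fewer cells of a type and less RNA per cell cannot be told apart.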

How the data were processed

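RNA of 7 samples (4 PDGF-CC, 3 PBS), 10 ng each per the labels' protocols, was hybridised to 1 microarray per sample. The deposited values are log2 probe set summaries, as their range (1.54 to 12.99) and nearly equal distributions show. Per the submitters' processing notes, Affymetrix Expression Console, RMA and limma were used, without versions or settings, and a genome build was not used. RMA equalises the distributions of arrays, which removes any difference in total RNA. Arrays carry no read depth, and their number limits the precision.

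Of 33793 probe sets, 23521 had 1 gene symbol in the platform annotation, 1814 several and 8458 none. Dim probe sets, those at or below the 30th percentile of mean signal (log2 4.145), and those lacking a symbol were left out. The other 17734 were fitted by group with limma 3.58.1 (lmFit, then eBayes; R 4.3.3), 2-sided and with no covariate, with Benjamini-Hochberg adjustment over all tested probe sets at 0.05. The fit was tested on simulated data. The 10 genes, the lists and the tests were chosen with earlier results of these data known. Named genes were the 10, the 5 largest absolute differences of each p53-related list and the 3 largest of the glucocorticoid and FOXO lists, fixed family members (Mdm4, Trp53inp2, Sesn3, Ccng2, Btg1) and the 5 closest profiles to Cdkn1a and to Trp53inp1. Cdkn1b, Cdkn1c and Cdkn2b were named after their values were seen. For each gene the brightest probe set was used. Motifs were searched with Python 3.11.15, and figures were drawn with matplotlib 3.10.9. Alternatives were other filters, priors, normalizations, weights, covariates, blocks and left-out arrays.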

Additional observations from a re-analysis of the deposited data

Results flagged for a closer look

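In the group of 4 PDGF-CC arrays, 1 array stood apart from the other 3 by Dixon's criterion for 7 of the 39 genes examined. The usual rate of about 1 in 20 by chance holds for independent genes without equal values, so the 7 are not set against it. PDGF-CC array 4 was apart for Mdm2, at 7.61 against 7.73 in each of the others, for Zmat3, at 6.15 against 6.12 in each of the others, and for Pdk4, at 7.51 against 7.58 to 7.59. PDGF-CC array 2 was apart for Phlda3, at 6.78 against 6.56 to 6.59, and lowest for Tnfrsf10b, at 5.58 against 6.06 to 6.12. It was lowest for Atr as well, at 6.38 against 6.77 to 6.82, and for Sesn3, at 7.28 against 7.82 to 7.92. For Mdm2 and Zmat3 the other 3 values were exactly equal, so that a small deviation was enough to meet the criterion. Phlda3 and Sesn3 also had equal values among the other arrays. The groups of 3 PBS arrays were not examined in this way.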

How the results depend on the processing

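Cdkn1a, Trp53inp1 and Sesn1 were negative under each of the 17 alternatives, and Sesn2 and Phlda3 positive under each that kept them. For the negative genes, whose groups did not overlap, leaving out an array could not change the sign. The median of the 10 genes ran from -0.054 to -0.014 (without PBS array 3) with 1 array left out and from -0.076 (50th-percentile filter) to -0.025 (repeated quantile normalization) under the other 10 alternatives, the number lower without overlap from 3 to 4 and the number higher from 0 to 1 (without PBS array 1 or 3). The median of the other p53 targets was -0.014 with arrays centred on their median, -0.0089 with repeated quantile normalization, -0.01497 with array weights, -0.014 with description number as a covariate, and -0.035 (without PBS array 1) to -0.0091 (without PDGF-CC array 1). Their number at an unadjusted p under 0.05 ran from 3 to 7 with 1 array left out, and that of regulators from 0 to 1. The number of family relatives ran from 0 to 3, and that of FOXO-induced genes from 3 to 5, the latter also 3 with description number. For the other glucocorticoid-induced genes it ran from 7 to 11 with 1 array left out. Over all tested probe sets, 3 passed the adjusted threshold with a robust and trended prior, a 50th-percentile filter, arrays centred or the mean of all probe sets of a gene, 1 with repeated quantile normalization, and 0 to 1 (without PDGF-CC array 3) with 1 array left out. Of the other p53 targets, regulators, relatives and other glucocorticoid- and FOXO-induced genes, 0 did so under any alternative run. Whether the numbers in the sample titles pair the samples was not settled. Deviations of same-numbered arrays correlated at 0.163, 0.107 and 0.084. Arrays with different numbers were not compared in this way, so these values cannot tell whether samples are paired. With the title numbers as a replicate block over replicates 1 to 3 of both groups, Cdkn1a was at -0.99, Trp53inp1 at -1.77 and Sesn1 at -0.67. The median of the 10 genes was then -0.054. In that fit 5 of the other p53 targets had an unadjusted p under 0.05 by limma, and 0 passed the adjusted threshold. Dim signal limits what can be said of Bbc3 and Sesn2, which the filter at the 50th percentile removed.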
